A study of Mus musculus with 2 samples.

Results

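Interferon-high neutrophils were 246 of the 9452 neutrophils and of the 21208 cells kept in droplet RNA profiles of mouse gingiva, with 143 cells in the diabetic library and 103 cells in the normoglycemic library. A neutrophil was a cell in which S100a8 and S100a9, the subunits of calprotectin, held at least 3% of the unique molecular identifiers (UMIs, each standing for 1 captured RNA molecule) and in which the complement genes C1qa, C1qb and C1qc together had at most 2 UMIs. A neutrophil was interferon-high when Rsad2, Ifit1, Ifit2 and Ifit3 together had at least 5 UMIs. Cells with fewer than 500 UMIs, fewer than 200 detected genes or more than 15% mitochondrial UMIs had been set aside. The members were therefore chosen on measured values, and the levels of these 9 genes are given below as a description only.

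The diabetic mice had type 1 diabetes induced with streptozotocin, a toxin of pancreatic beta cells, and the normoglycemic mice had normal glucose. All animals of both groups had the genotype CD11CCre-/-;FoxoLL on a mixed C57B6 - FVB background: loxP sites surround exon 2 of Foxo1, and with no Cre the Foxo1 protein is normal. All animals of both groups had also received a bacterially induced inflammation of the gums for 2 weeks and a further 2 weeks without it, so an untreated gum was not analysed here. Each library was a single pool of 4 animals. Before loading of 10000 cells a lane, sorting removed dead, endothelial and red blood cells and kept CD45+ leukocytes, and a 20% enrichment of CD11c+ cells was applied. Ages and sexes of the animals are not given in the sources used here. With 1 library per condition no difference between conditions has a replicate check and no test was possible, and diabetes cannot be told apart from any other difference between the 2 pools or lanes. The 95% intervals below are exact binomial (Clopper-Pearson) for shares, exact conditional binomial for ratios and Newcombe for differences of shares, and they cover counting error only.

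Interferons are secreted when a cell senses viral or bacterial nucleic acid. Type I interferons bind the receptor made of Ifnar1 and Ifnar2, which activates the kinases Jak1 and Tyk2 and transcription factors that include Stat2 and Irf9. These factors bind an interferon-stimulated response element in the promoters of their targets. Neutrophils carry this receptor, and neutrophils with raised interferon targets are known from blood, tumours and inflamed tissue of mice and people. Of the 4 genes of the rule, Rsad2 encodes viperin, a radical SAM enzyme that makes a chain-terminating nucleotide, and Ifit1, Ifit2 and Ifit3 encode RNA-binding proteins that hold back translation of foreign RNA.

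Promoters of the genes that define or follow the interferon-high state are shown first, because part of these genes share a response element there. The letters GAAA, any 2 bases and GAAA again, the core of the response element, were searched on both strands of RefSeq promoters of assembly GRCm38.p6, each 300 bases long with 250 bases before and 50 bases after the gene start. Matches could overlap each other. The windows below run in the direction of the gene and lie wholly before its start, and capitals mark the matches.
Rsad2, chr12:26456538-26456597, minus strand: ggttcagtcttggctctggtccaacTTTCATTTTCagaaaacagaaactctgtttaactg
Ifit1, chr19:34640760-34640838, plus strand: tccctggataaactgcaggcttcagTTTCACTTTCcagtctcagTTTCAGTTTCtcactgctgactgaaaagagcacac
Ifit3, chr19:34583348-34583441, plus strand: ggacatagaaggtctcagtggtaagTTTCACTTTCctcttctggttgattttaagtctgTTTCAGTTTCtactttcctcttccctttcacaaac
Isg15, chr4:156200850-156200921, minus strand: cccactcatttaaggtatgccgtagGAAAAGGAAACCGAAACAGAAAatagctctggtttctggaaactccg
Cxcl10, chr5:92349068-92349127, minus strand: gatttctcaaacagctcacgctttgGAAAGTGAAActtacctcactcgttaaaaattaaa
Gbp2, chr3:142620579-142620638, plus strand: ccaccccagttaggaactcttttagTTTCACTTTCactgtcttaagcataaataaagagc
The match began 120 bases before the start of Rsad2, 213 bases before that of Cxcl10 and 59 bases before that of Gbp2, while Ifit1 and Ifit3 held 2 matches and Isg15 held 3 overlapping ones. No match was found in either Ifit2 promoter, nor in those of Oasl1, Ifi47, Herc6 and Slfn4, which says only that these letters are absent from those windows. The letters were present in 3.44% of all 32851 promoters. Counted by gene, they were present in 35 of the 91 promoter-bearing genes that were at least 2-fold higher in interferon-high than in other neutrophils in both libraries, or 38.5% (28.4 to 49.2%). Among all measured genes with a promoter they were present in 158 of 3141, or 5.03%. The members were chosen by 4 interferon genes, of which 3 held these letters, so the share of 38.5% is a description and not a test. Ifit3b, a near copy of Ifit3 on the same chromosome, had the same letters in this window as Ifit3. Some reads of the copies may not be told apart, so the values of both are uncertain.

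The summed level of 8 neutrophil genes outside the rule was similar in interferon-high and other neutrophils. These genes (Csf3r, Cxcr2, Ly6g, Retnlg, G0s2, Il1r2, Hdc and Mmp9) summed to 22384 counts per 1000000 UMIs (CPM) in interferon-high and 22769 CPM in other neutrophils of the diabetic library. Normoglycemic cells had 9905 CPM in interferon-high and 9759 CPM in other neutrophils. G0s2 was the largest part of these sums, at 12023 CPM in interferon-high and 11463 CPM in other diabetic neutrophils, and single genes varied. In the diabetic library Retnlg was at 4385 CPM in interferon-high and 5695 CPM in other neutrophils, and Mmp9 at 170 and 255 CPM. Il1r2 went the other way, at 1437 and 1140 CPM. Hdc, the histidine decarboxylase of granulocytes, had a UMI in 143 of 143 diabetic and 98 of 103 normoglycemic members. The 7 macrophage genes outside the rule summed to 291 CPM in interferon-high and 338 CPM in other neutrophils of the diabetic library, and to 340 CPM in interferon-high and 321 CPM in other neutrophils of the normoglycemic library. The 5 monocyte genes summed to 599 CPM in interferon-high and 239 CPM in other neutrophils of the diabetic library, with UMIs in 30 members and 32.3% of them in 1 cell. They summed to 259 CPM in interferon-high and 207 CPM in other neutrophils of the normoglycemic library, with UMIs in 26 members. Of 7 dendritic cell genes 5 were at 0 in the members of both libraries, and the 4 natural killer cell genes had 4 UMIs in 1 diabetic and 0 UMIs in any normoglycemic member. The 5 B cell genes summed to 47.2 CPM in interferon-high and 8.32 CPM in other neutrophils of the diabetic library, with 83.3% of the UMIs in 1 cell, and to 10.7 and 46.5 CPM in those of the normoglycemic library. The 4 epithelial genes summed to 62.9 CPM in interferon-high and 23.8 CPM in other neutrophils of the diabetic library, with 80% of the UMIs in 1 cell, and to 7.63 and 7.23 CPM in those of the normoglycemic library. The 5 plasmacytoid dendritic cell genes summed to 70.7 and 20.1 CPM in the diabetic and 73.2 and 12.8 CPM in the normoglycemic library, with all but 1 UMI of the members from Bst2, which is itself a listed effector. Median depth of the members was 3497 UMIs in the diabetic and 4939 UMIs in the normoglycemic library, and that of other neutrophils was 3556 UMIs in the diabetic and 4157 UMIs in the normoglycemic library. In all, the diabetic library held 78220582 and the normoglycemic library 89339733 gene UMIs. The libraries shared 32 barcodes, and no barcode was a member in both.

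Interferon-high cells were a larger share of neutrophils in the diabetic library at low and moderate thresholds, and not at high ones. They were 143 of 4551 diabetic neutrophils, or 3.14% (2.65 to 3.69%), against 103 of 4901 normoglycemic neutrophils, or 2.10% (1.72 to 2.54%). The difference was 1.04 percentage points (0.397 to 1.70) and the ratio 1.5 (1.15 to 1.95). With at least 1 UMI of the 4 genes the shares were 10.7% of diabetic and 7.35% of normoglycemic neutrophils. With at least 10 UMIs they were 1.52% and 1.31%, and with at least 20 UMIs 0.417% (19 cells) of diabetic and 0.612% (30 cells) of normoglycemic neutrophils. From 7 UMIs upward the interval of the difference included 0. After each cell was thinned to 1000 UMIs, 2.69% of diabetic and 1.61% of normoglycemic neutrophils still had at least 2 UMIs of the 4 genes, with 56 diabetic and 47 normoglycemic neutrophils too shallow for it. Neutrophils were 44.4% of kept cells in the diabetic and 44.8% in the normoglycemic library.

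Most of the difference in shares lay in 1 range of depth. Among neutrophils with at least 2000 and under 4000 UMIs, 92 of 2625 diabetic and 20 of 1982 normoglycemic cells were interferon-high, or 3.5% and 1.01%. Among those with at least 4000 and under 8000 UMIs, 37 of 1425 diabetic and 55 of 2108 normoglycemic cells were, or 2.60% and 2.61%. Below 2000 UMIs 4 of 308 diabetic and 5 of 240 normoglycemic cells were, and at 8000 UMIs or more 10 of 193 diabetic (5.18%) and 23 of 571 normoglycemic cells (4.03%). With every cell thinned to 1000 UMIs the ratio of shares was 1.55 (1.27 to 1.89) at 1 UMI or more, 1.68 (1.25 to 2.26) at 2 or more and 1.82 (1.25 to 2.70) at 3 or more. Gene by gene, at least 1 UMI of Rsad2 was found in 8.75% of diabetic and 6.28% of normoglycemic neutrophils, and of Ifit3 in 2.33% and 0.898%, a ratio of 2.59 (1.81 to 3.78). No cell type here is known to lack these genes, so the level that free RNA gives was not measured. In non-neutrophil cells the same threshold of 5 UMIs was passed by 167 of 5709 diabetic cells, or 2.93%, against 240 of 6047 normoglycemic cells, or 3.97%. That difference, of -1.04 points (-1.71 to -0.384), had the opposite sign from the difference in neutrophils. With non-neutrophil cells thinned to 1000 UMIs, the difference was -1.45 points (-2.18 to -0.712) at 1 UMI or more. It was -0.463 points (-0.945 to 0.0174) at 2 or more and -0.308 points (-0.690 to 0.0726) at 3 or more, and both of these intervals included 0.

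**Figure D1:**
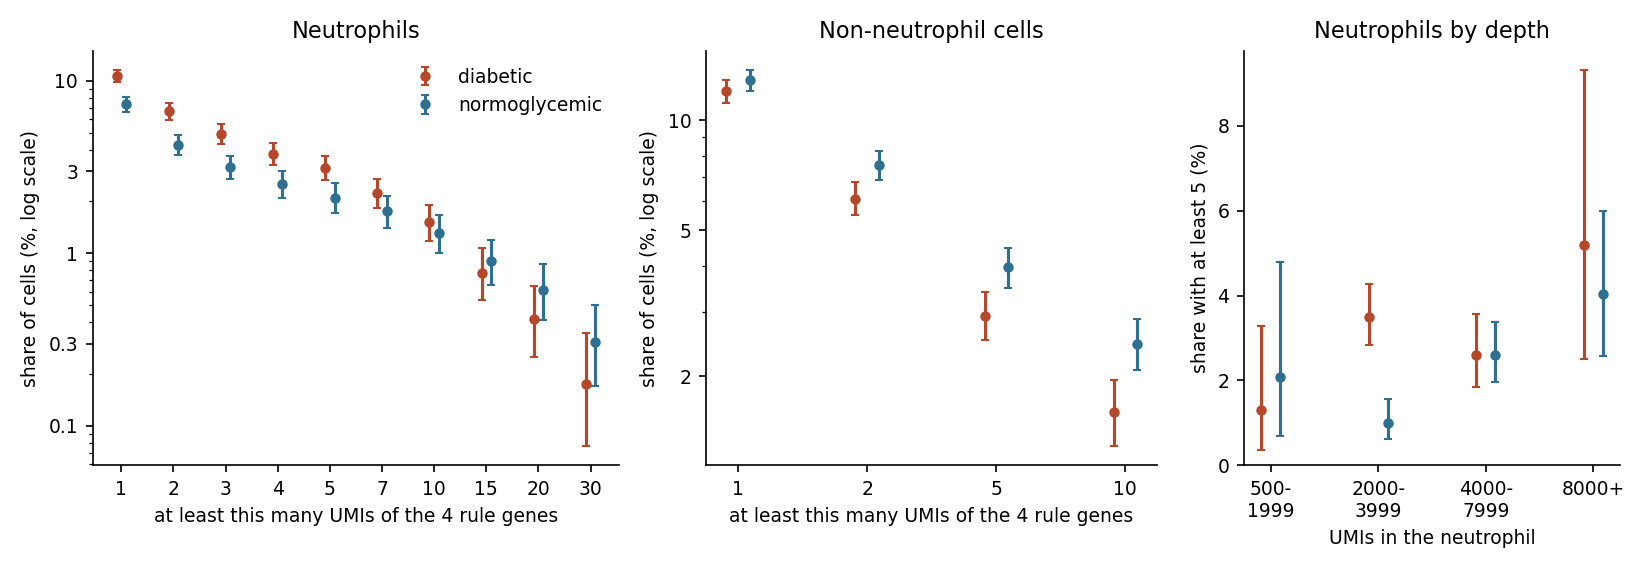
Shares of neutrophils (left, log scale) and of non-neutrophil cells (middle, log scale) with at least the given number of UMIs of Rsad2, Ifit1, Ifit2 and Ifit3 together, and of neutrophils past 5 UMIs by depth (right), in the diabetic and normoglycemic libraries with exact 95% counting intervals. Points of the diabetic library lie above those of the normoglycemic library in neutrophils up to 10 UMIs and below them in non-neutrophil cells, and the depth range from 2000 to under 4000 UMIs holds the widest gap.

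Rsad2 carried most of the rule. This gene (ENSMUSG00000020641, minus strand of chromosome 12, 26442746 to 26456452 in mm10) had a median of 7 UMIs and a highest value of 62 in diabetic members, against a median of 10 and a highest value of 146 in normoglycemic members. At least 20 UMIs of it were found in 8 diabetic and 27 normoglycemic members. Summed over members it stood at 1930 CPM in the diabetic and 2733 CPM in the normoglycemic library, against 26.3 and 14.5 CPM in other neutrophils of the same libraries. Ifit1, at 545 and 414 CPM in diabetic and normoglycemic members, and Ifit3, at 305 and 175 CPM, went the other way between libraries. Ifit2 was low in both, at 48.7 CPM in diabetic and 53.4 CPM in normoglycemic members. These 3 genes and Ifit3b lie within 1 stretch of chromosome 19, from the start of Ifit2 at 34550694 to the end of Ifit1 at 34650009. Rsad2 was the only rule gene found in 59 diabetic members (41.3%) and 58 normoglycemic members (56.3%), while Rsad2 was joined by an Ifit gene in 79 diabetic (55.2%) and 42 normoglycemic members (40.8%).

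Members with Rsad2 alone also carried a wider interferon programme, at a lower level than members that also had an Ifit gene. They also had fewer rule UMIs, with a median of 7 against 12 in the diabetic and 9.5 against 17.5 in the normoglycemic library. The classes were not matched for rule UMIs or depth. The listed type I interferon-stimulated effectors, leaving out the 4 genes of the rule, summed to 9762 CPM in diabetic and 8515 CPM in normoglycemic members with Rsad2 alone. In members with Rsad2 and an Ifit gene they summed to 17441 CPM in the diabetic and 12998 CPM in the normoglycemic library. In other neutrophils they summed to 3509 CPM in the diabetic and 2446 CPM in the normoglycemic library. No member lacked them: the fewest listed effectors found in any member was 3 in either library, and the median was 16 in both, against medians of 5 in diabetic and 4 in normoglycemic other neutrophils. Slfn5, a Schlafen family protein, had a UMI in 52 of 79 diabetic members with Rsad2 and an Ifit gene (65.8%) and in 13 of 59 with Rsad2 alone (22.03%), and in 27 of 42 (64.3%) and 13 of 58 (22.4%) of the same classes of normoglycemic members. Cxcl10, a chemokine that draws T cells through Cxcr3, was at 834 CPM in diabetic members with Rsad2 and an Ifit gene and 141 CPM in those with Rsad2 alone, but only 8 and 2 cells had a UMI of it. The threshold drew no sharp line: the 19 diabetic cells with exactly 5 rule UMIs had 12580 CPM of listed effectors and the 29 cells with exactly 4 had 8328 CPM. In the normoglycemic library the 10 cells with exactly 5 had 5834 CPM and the 20 cells with exactly 4 had 8112 CPM.

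The level of the programme per cell followed the rule UMIs, and that of neutrophil identity genes hardly did. Per 10000 UMIs, the median count of listed effectors was 163 (quartiles 105 to 233) in diabetic and 102 (59.8 to 167) in normoglycemic members, against 25.8 and 18.9 in other neutrophils of the same libraries. In diabetic cells with 0, 5 to 9, 10 to 19 and 20 or more rule UMIs this median was 24.6, 128, 211 and 228. In normoglycemic cells of the same classes it was 18.3, 80.7, 79.2 and 165, so the 5 to 9 and 10 to 19 classes were close there. Class I presentation genes, which show cell peptides to T cells, had a median of 38.8 per 10000 UMIs in diabetic cells with no rule UMI and 95.6 in those with 20 or more, and 36.2 and 70.9 in the same classes of normoglycemic cells. Identity genes had a median of 437 in diabetic and 263 in normoglycemic members, against 410 and 243 in other neutrophils. With all cells thinned to 1000 UMIs, at least 3 listed effectors were found in 93.0% of diabetic and 89.2% of normoglycemic members, against 42.4% and 25.8% of other neutrophils.

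**Figure D2:**
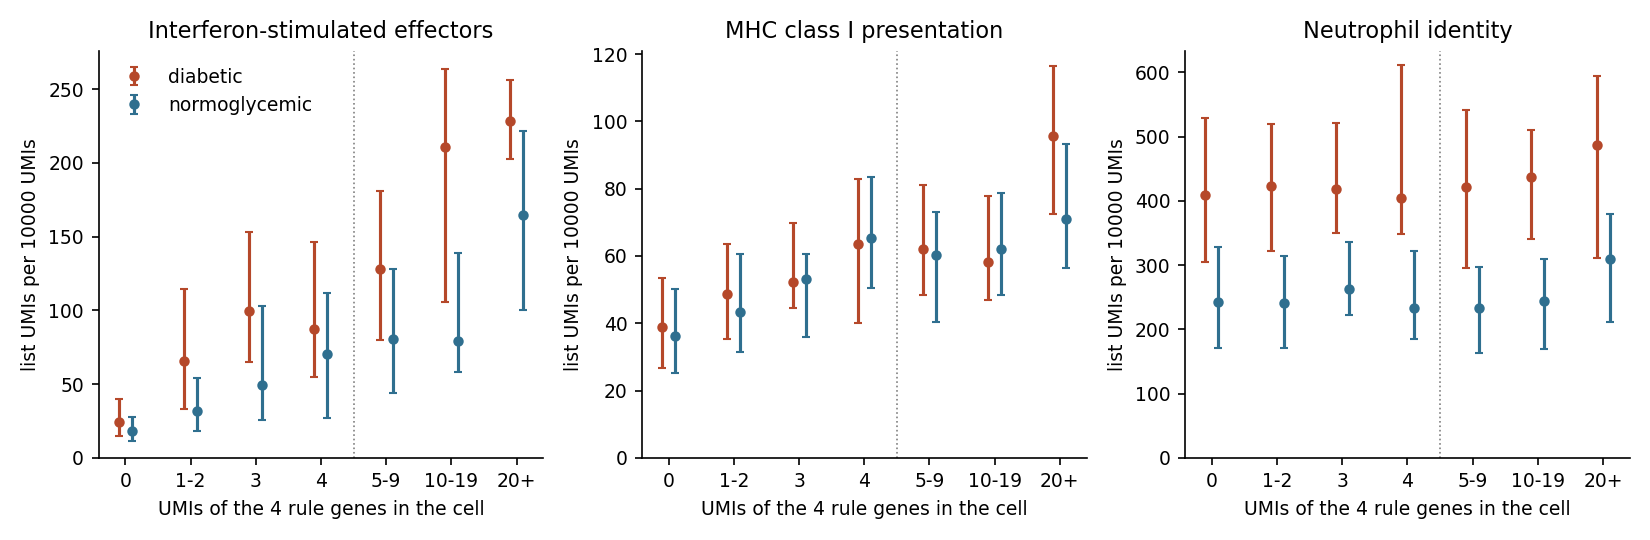
UMIs of listed interferon-stimulated effectors without the 4 rule genes (left), class I presentation genes (middle) and neutrophil identity genes (right) per 10000 UMIs of a cell, by the cell's UMIs of the 4 rule genes, as medians with quartiles in each library. The dotted line marks the threshold of 5 UMIs. Medians of effectors and class I genes are lowest in cells with no rule UMI, class I genes are about level from 4 to 19 UMIs, and identity genes show little change, apart from somewhat higher medians at 20 or more UMIs (486 in the diabetic and 309 in the normoglycemic library).

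Between interferon-high and other neutrophils, 364 of 4515 measured genes in the diabetic library, or 8.06%, were at least 2-fold higher in the members and 190, or 4.21%, at least 2-fold lower. In the normoglycemic library 245 of 4292, or 5.71%, were higher and 233, or 5.43%, lower. A gene was measured with at least 10 CPM in either kind of cell. The higher calls were shared more than the lower calls: 109 genes, or 2.78% of the 3916 measured in both libraries, were higher in both, which is 29.9% of the diabetic and 44.5% of the normoglycemic calls. The 19 genes lower in both, or 0.485%, were 10% of the diabetic and 8.15% of the normoglycemic calls. However, 469 diabetic and 379 normoglycemic genes were measured only through the members and could only come out higher. Among genes with at least 10 CPM in other neutrophils, 130 of 4046 (3.21%) were higher and 190 (4.7%) lower in diabetic members. In normoglycemic members 85 of 3913 such genes (2.17%) were higher and 233 (5.95%) lower. Sharing was not counted among such genes alone. Of the 109 genes, 45 were listed type I effectors and 9 were interferon-gamma inducible GTPases. Interferon targets are known to be induced together, so genes of these lists were selected along with the rule genes, and their levels describe the members without testing them.

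Of 66 listed type I effectors 49 were measured in the diabetic library and 47 of these were at least 2-fold higher in members, with a median log2 difference from other neutrophils of 2.36, against a median of 0.07 over all measured genes. In the normoglycemic library 52 were measured and 49 of these were higher, with a median log2 difference of 2.48 against -0.05 over all genes. Since 18 diabetic and 24 normoglycemic effectors were measured only through the members, and so could only come out higher, they were also counted among genes with at least 10 CPM in other neutrophils. There 29 of 31 effectors were at least 2-fold higher in diabetic members, with a median of 1.88, against 3.21% of all 4046 such genes, and 0 were lower, against 4.7%. In the normoglycemic library 25 of 28 were, with a median of 2.14, against 2.17% of all 3913 such genes, and 0 were lower, against 5.95%. Isg15, a ubiquitin-like protein joined to other proteins and also secreted, was the most abundant. It had a median of 18 UMIs in diabetic members (lowest 0, highest 67) and 10 in normoglycemic members (lowest 0, highest 77), and a median of 0 in other neutrophils of both libraries. In CPM it stood at 4433 in interferon-high and 641 in other neutrophils of the diabetic library, a ratio of 6.91 (6.63 to 7.20). The normoglycemic values were 2130 CPM in interferon-high and 277 CPM in other neutrophils, a ratio of 7.69 (7.26 to 8.15). Isg15 was not exclusive to the members, since 48.2% of other diabetic and 35.2% of other normoglycemic neutrophils had at least 1 UMI of it.

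Several genes less abundant than Isg15 had larger ratios of members to other neutrophils. Usp18, the protease that removes Isg15 from proteins and dampens the receptor, stood at 55.0 CPM in interferon-high and 2.04 CPM in other neutrophils of the diabetic library, a ratio of 27.0 (16.5 to 44.2). In the normoglycemic library it stood at 85.5 CPM in interferon-high and 1.31 CPM in other neutrophils, a ratio of 65.0 (41.4 to 104). It was found in 24 diabetic and 30 normoglycemic members, so most members had no UMI of it. Cmpk2, a mitochondrial nucleotide kinase whose gene neighbours Rsad2 on chromosome 12, was at 42.4 CPM in interferon-high and 0.793 CPM in other neutrophils of the diabetic library. In the normoglycemic library it was at 139 CPM in interferon-high and 0.534 CPM in other neutrophils. Oasl1, an oligoadenylate synthetase-like protein, had within-library ratios of 16.2 in the diabetic and 30.2 in the normoglycemic library, and Herc6, the mouse ligase that attaches Isg15, had 13.2 and 21.9. Usp18, Cmpk2 and Oasl1 were below 10 CPM in other neutrophils of both libraries, and Herc6 in those of the normoglycemic library. There these genes were measured only through the members and could only come out higher. Slfn5 had 12.1 and 17.7, and Parp14, a mono-ADP-ribosyltransferase, had 8.90 and 10.1. Slfn4, another Schlafen gene of myeloid cells, was abundant in all neutrophils, with ratios of 3.63 in the diabetic and 4.61 in the normoglycemic library.

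**Figure D3:**
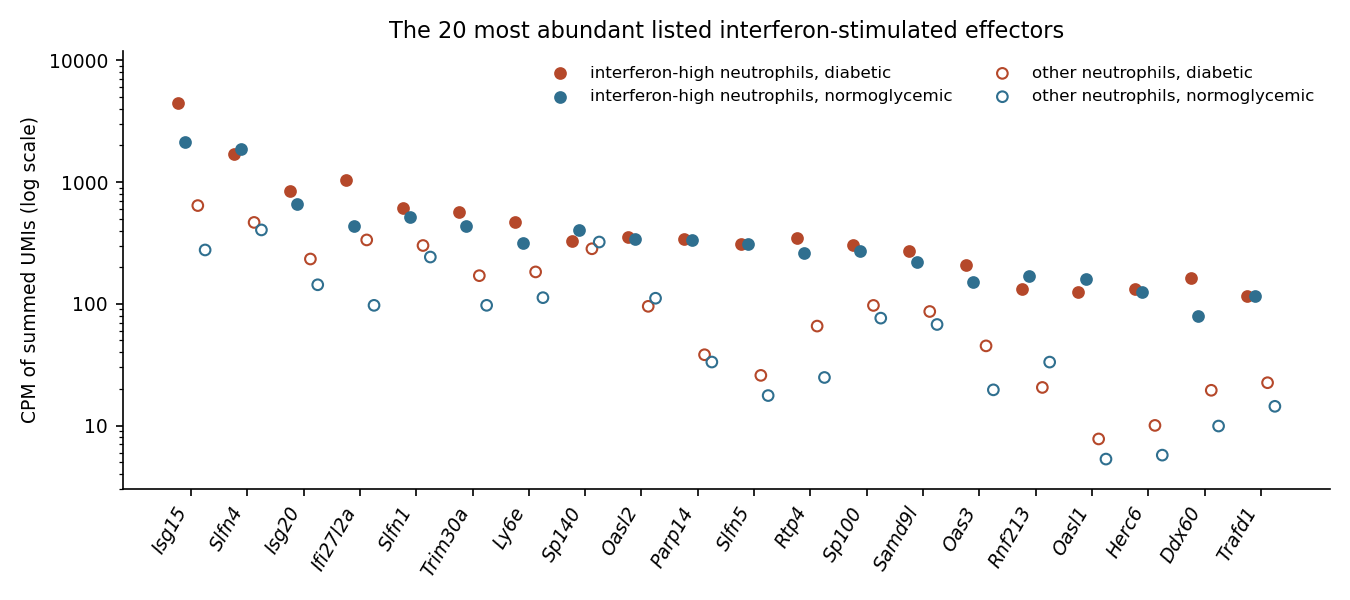
Summed level in CPM (log scale) of the 20 most abundant listed interferon-stimulated effectors in interferon-high neutrophils (filled) and other neutrophils (open) of each library. Isg15 is highest, at 4433 CPM in diabetic and 2130 CPM in normoglycemic members, and Sp140 has the narrowest gap between members and other neutrophils.

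Interferon-gamma inducible GTPases, which attack the vacuoles of intracellular microbes, were low in other neutrophils. Of the 18 listed, 10 were measured in the diabetic library, with a median log2 difference of 2.91, and 9 in the normoglycemic library, with a median of 3.22. In each library 8 of these were measured only through the members, and a gene below 10 CPM in other neutrophils could only come out higher. The 2 diabetic genes and 1 normoglycemic gene that reached 10 CPM in other neutrophils were at least 2-fold higher in members. Ifi47 stood at 99.02 CPM in interferon-high and 3.85 CPM in other neutrophils of the diabetic library, and at 90.03 and 3.21 CPM in those of the normoglycemic library. Irgm1, which regulates the other members of its family, had ratios of 11.04 in the diabetic and 14.5 in the normoglycemic library, and Gbp5, a guanylate-binding protein that promotes inflammasome assembly, had 10.4 and 15.6. Gbp5 was found in 15 members of either library, and the 42 UMIs of Iigp1 in diabetic members all came from 1 cell. Of the 11 listed GTPase genes with a promoter in the table, 10 (90.9%) held the response element letters, against 3.99% of all genes. Of the IFITM genes, which block fusion of viruses, Ifitm3 alone was over 2-fold higher, with ratios of 3.07 in the diabetic and 3.05 in the normoglycemic library. Ifitm1, at 3939 CPM in interferon-high and 4045 CPM in other diabetic neutrophils, was as high in other neutrophils as in members.

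The receptor genes stood at about the same level in members and other neutrophils, and the downstream factors Irf7, Stat2 and Irf9 were higher in members. Ifnar1 stood at 108 CPM in interferon-high and 118 CPM in other neutrophils of the diabetic library, a ratio of 0.918 (0.712 to 1.17), and at 136 and 132 CPM in those of the normoglycemic library. Ifnar2 had ratios of 1.13 in the diabetic and 1.01 in the normoglycemic library, and the kinase Jak1 had 1.12 and 1.05. Irf7, the factor that amplifies interferon production, stood at 234 CPM in interferon-high and 37.2 CPM in other neutrophils of the diabetic library, a ratio of 6.30, and at 198 and 17.4 CPM in those of the normoglycemic library, a ratio of 11.4. Stat2 had ratios of 8.63 in the diabetic and 8.23 in the normoglycemic library, and Irf9 had 3.14 and 5.12. Over the whole list of receptors and signalling genes 5 of 21 were at least 2-fold higher in diabetic and 6 of 22 in normoglycemic members, with medians of 0.08 and 0.16 on the log2 scale, against 8.06% and 5.71% of all measured genes, and 1 was lower in normoglycemic members. The cytosolic RNA sensors Ddx58 (RIG-I) and Ifih1 (MDA5) had ratios of 7.06 and 6.70 in the diabetic library, and 9.84 and 12.3 in the normoglycemic library. Over the whole list of nucleic acid sensors and adaptors 5 of 10 measured genes were at least 2-fold higher in either library, and 0 were lower. Among those with at least 10 CPM in other neutrophils, 3 of 7 were higher in diabetic and 1 of 6 in normoglycemic members. Of all such genes 3.21% and 2.17% were higher. No UMI of any of the 21 interferon genes was found in the members of either library, which allows up to 2.10% of diabetic and 2.91% of normoglycemic members with a UMI of each gene and sets no limit on members that express it below capture. Outside neutrophils, Ifnb1, the first type I interferon made by many cells, had 125 UMIs in the diabetic and 48 UMIs in the normoglycemic library. Of all kept cells, 39 diabetic and 22 normoglycemic cells had a UMI of it. Ifng, with 382 diabetic and 484 normoglycemic UMIs outside neutrophils, and Ifnk, with 36 and 47, went the other way. A UMI of any type I or III interferon gene was found in 72 diabetic and 78 normoglycemic kept cells.

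Class I presentation genes were moderately higher. At least 2-fold higher were 9 of 17 measured genes in diabetic and 5 of 16 in normoglycemic members, with none lower and medians of 1.04 and 0.91 on the log2 scale, against 8.06% of all measured genes higher in the diabetic and 5.71% in the normoglycemic library. Of the 14 class I genes with at least 10 CPM in other neutrophils, 6 were higher in diabetic and 4 in normoglycemic members. B2m, the light chain of class I molecules, stood at 1926 CPM in interferon-high and 1118 CPM in other neutrophils of the diabetic library, and at 2107 and 1293 CPM in those of the normoglycemic library. Tap1, a subunit of the peptide transporter, had ratios of 5.11 in the diabetic and 3.39 in the normoglycemic library, and the immunoproteasome subunit Psmb8 had 3.41 and 2.39. None of the genes listed for the NADPH oxidase (6 measured), for glucose uptake and glycolysis (20 measured) or for FOXO and insulin receptor signalling (16 measured) was past 2-fold in either library. Of the neutrophil identity genes 0 of 20 were in the diabetic library, and in the normoglycemic library only Ly6g was, with 70% of its UMIs in 1 of 6 cells.

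Outside these lists, 39 of the 109 shared genes belonged to no interferon-related or cytokine list. Absence from the lists does not show that a gene is not an interferon target. Plac8, a cysteine-rich protein of myeloid cells, was at 1034 CPM in interferon-high and 278 CPM in other neutrophils of the diabetic library, and at 490 and 112 CPM in those of the normoglycemic library, with UMIs in 82 diabetic and 32 normoglycemic members. Tor1aip1, a nuclear envelope protein, had ratios of 2.82 in the diabetic and 3.52 in the normoglycemic library, and Casp8, the initiator caspase of death receptors, had 2.56 and 2.43. Plac8, Tor1aip1 and Casp8 were picked for mention after their values were seen, from the 13 such genes found in at least 20 members of each library. The largest ratios of those 13 were those of Gm13822, which met the rule for naming, at 10.4 in the diabetic and 12.8 in the normoglycemic library. It is an antisense gene whose end overlaps the start of the listed effector Oasl1 on chromosome 5. In other normoglycemic neutrophils it was at 4.64 CPM, so it was measured there only through the members.

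Of the listed granule and antimicrobial genes 7 of 21 measured were at least 2-fold lower and 0 higher in diabetic members, with a median log2 difference of -0.59. In normoglycemic members 3 of 17 were lower and 1 higher, with a median of -0.14. Of all measured genes 4.21% were lower in the diabetic and 5.43% in the normoglycemic library. Of the lower genes only Camp, Ngp and Serpinb2 met the rule for naming. Camp, the cathelicidin of secondary granules, stood at 4.72 CPM in interferon-high and 286 CPM in other neutrophils of the diabetic library, and at 4.58 and 87.6 CPM in those of the normoglycemic library. It was found in about the same share of cells, 2.10% of interferon-high and 1.95% of other diabetic neutrophils, and the UMIs of the other neutrophils sat in a few cells, with up to 1224 in 1 cell. Ngp, another secondary granule protein made in the bone marrow, had at least 20 UMIs in 0 members and 20 other neutrophils of the diabetic library, and in 0 members and 11 other neutrophils of the normoglycemic library. Serpinb2, a protease inhibitor, was found in 4 members of either library, or 2.80% of diabetic and 3.88% of normoglycemic members, against 5.88% and 6.71% of other neutrophils. Without cells bearing markers of other types, the log2 difference of Ngp in the normoglycemic library was -0.63, against -1.88 with all cells, and that of Camp was -2.002, against -4.25. Among cells below 8000 UMIs that of Camp was -3.43 in the diabetic library, against -5.90 with all cells, and -1.23 in the normoglycemic library, where it was -1.86 without the deepest 8% of cells. At a threshold of 3 UMIs that of Serpinb2 in the diabetic library was -0.82, against -3.38 at 5 UMIs.

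**Figure D4:**
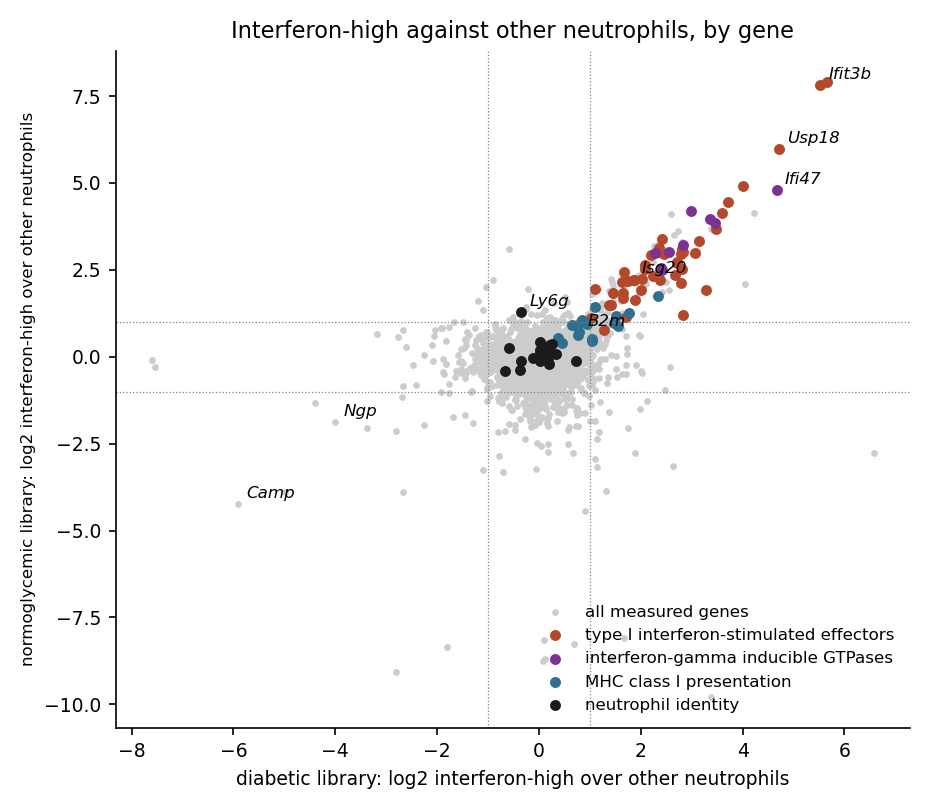
Log2 difference of each measured gene between interferon-high and other neutrophils in the diabetic library (horizontal) and the normoglycemic library (vertical), with 4 gene lists coloured and dotted lines at 2-fold. Type I effectors and GTPases lie at the upper right, class I genes near 1 on both axes, and neutrophil identity genes near 0, apart from Ly6g.

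Between libraries, single interferon targets of the members differed in both directions. Of 53 measured type I effectors 10 were at least 1.5-fold higher and 8 at least 1.5-fold lower in diabetic members, with a median log2 difference of 0.04, which was -0.13 with TMM scaling, a method that shifts all log2 differences between members by -0.18. Over all genes 1433 of 4626, or 31%, were higher and 891, or 19.3%, lower in diabetic members, with a median of 0.17, so neither count of effectors exceeded the share over all genes. Isg15 was higher, at 4433 CPM in diabetic and 2130 CPM in normoglycemic members, a ratio of 2.08 (1.95 to 2.22), and so was Ifi27l2a, a mitochondrial interferon target, at 1036 and 432 CPM, a ratio of 2.40 (2.08 to 2.77). Slfn4 and Slfn5 were close to equal, with ratios of 0.907 and 0.995. Cmpk2 was lower, with a ratio of 0.306 (0.191 to 0.474), as was Rsad2 among the genes of the rule, with 0.706. In other neutrophils of the same libraries, 13 of 33 measured effectors were higher and 3 lower, with a median log2 difference of 0.37, against 15.1% higher and 14.5% lower over all 4303 genes. There the ratio was 2.32 for Isg15 and 3.45 for Ifi27l2a. The 53 and the 33 effectors are not the same set of genes, since genes were measured in each comparison by their own level. The medians of 0.04 and 0.37 are therefore not over the same genes. Both comparisons set the same 2 libraries against each other, and whether they differ was not tested.

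For genes outside the interferon programme, ratios between the libraries in members and in other neutrophils are set side by side. Retnlg, a resistin-like protein of neutrophils, stood at 4385 CPM in diabetic and 757 CPM in normoglycemic members, a ratio of 5.79 (5.26 to 6.39), against a ratio of 5.74 in other neutrophils. G0s2, an inhibitor of fat breakdown, had a ratio of 2.55 in members and 2.48 in other neutrophils, and Rdh12, a retinol dehydrogenase, had 6.2 and 6.45. Ccl3, a chemokine of the MIP-1 group, stood at 5758 CPM in diabetic and 17088 CPM in normoglycemic members, a ratio of 0.337 (0.325 to 0.350), against 0.402 in other neutrophils. Il1rn, the antagonist of the interleukin-1 receptor, had a ratio of 0.465 in members and 0.418 in other neutrophils, Tnf had 0.431 and 0.337, and the checkpoint ligand Cd274 had 0.425 and 0.282. Il1b, at 28025 CPM in diabetic and 22853 CPM in normoglycemic members, had a ratio of 1.23 in both. The cytokine and chemokine list had 4 higher and 14 lower of 29 measured genes in diabetic members, where 31% of all genes were higher and 19.3% lower. In other diabetic neutrophils it had 2 higher and 12 lower of 31, where 15.1% of all genes were higher and 14.5% lower.

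A few genes, chosen after their values were seen, had ratios in members unlike those in other neutrophils, on few cells. Cxcl1, a neutrophil attractant, was at 1426 CPM in diabetic and 502 CPM in normoglycemic members, a ratio of 2.84 (2.50 to 3.23), against 0.974 in other neutrophils, with UMIs in 49 diabetic and 37 normoglycemic members and 19.3% of the diabetic UMIs in 1 cell. Hspa1b, a heat shock protein, had ratios of 4.17 in members and 0.678 in other neutrophils, with UMIs in 22 diabetic and 6 normoglycemic members. Fnip2, a partner of folliculin, was lower in both kinds of cell: it was at 4.72 CPM in diabetic and 128 CPM in normoglycemic members, a ratio of 0.0368 (0.00744 to 0.111) with UMIs in 3 and 32 cells, against 13.1 CPM in diabetic and 90.6 CPM in normoglycemic other neutrophils, a ratio of 0.144 (0.126 to 0.165). The naming rule asked for at least 50 CPM on the higher side, at least 50 counts and an interval wholly beyond 1.5-fold. By it 121 genes were higher and 106 lower in diabetic members, and 167 higher and 227 lower in other diabetic neutrophils. At 50 CPM, 1817 genes were measured in members and 1673 in other neutrophils. Members were fewer cells with wider intervals, so the counts are not comparable between them. Several of the highest genes in diabetic members rested on 1 cell, such as BC037156, with 98.4% of its UMIs in 1 cell, and Ppbp, with 95.2%. The salivary gland genes Dcpp1, Dcpp2, Dcpp3 and Bpifa2 had 0 UMIs in normoglycemic members, and Dcpp3 was at least 64.9-fold higher in diabetic members, taking 3 counts as the floor in normoglycemic members. At 297 CPM in diabetic members Dcpp3 was no higher than in other diabetic neutrophils, at 442 CPM, and stood at 4279 CPM in the diabetic library's non-neutrophil cells that were below the interferon threshold.

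**Figure D5:**
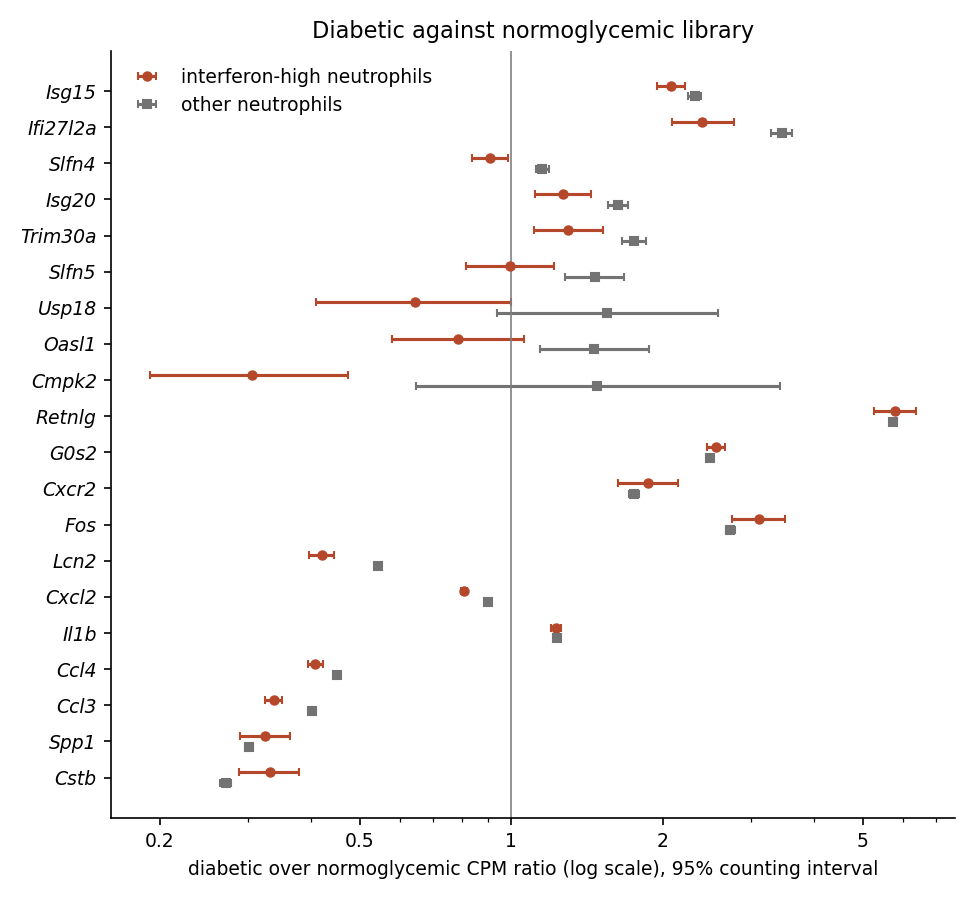
Ratio of diabetic to normoglycemic CPM (log scale) for 20 genes in interferon-high neutrophils (circles) and other neutrophils (squares), with 95% counting intervals. The genes were chosen after their values were seen. Retnlg, G0s2, Ccl3 and Cstb lie on the same side of 1 in both, and the effectors from Slfn4 to Cmpk2 lie further left in members than in other neutrophils. Of these, Usp18, Oasl1 and Cmpk2 were below 10 CPM in other neutrophils of both libraries and so not measured there. Members of both libraries had passed the same threshold of rule UMIs, and whether the 2 kinds of cell differ was not tested.

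Interferon-high neutrophils and the non-neutrophil cells past the same threshold both carried the type I effectors, in a different order of abundance. Isg15 stood at 4433 CPM in diabetic and 2130 CPM in normoglycemic members, against 1100 and 1094 CPM in the 167 diabetic and 240 normoglycemic non-neutrophil cells. Slfn4 stood at 1691 CPM in diabetic and 1865 CPM in normoglycemic members, against 104 and 232 CPM in the non-neutrophil cells of the same libraries. Cxcl10 stood at 533 CPM in diabetic and 218 CPM in normoglycemic members, where only 10 diabetic and 12 normoglycemic cells had a UMI of it, against 1024 and 653 CPM in the non-neutrophil cells. Cells of several types are pooled in that group, so its values describe a mixture. The threshold was a count of UMIs, and depth was not matched between the groups. Median depth was 12163 UMIs in the diabetic non-neutrophil cells and 3497 UMIs in diabetic members. Rsad2 stood at 1930 CPM in diabetic and 2733 CPM in normoglycemic members, against 1036 and 1245 CPM in the non-neutrophil cells. Whether the differences in Isg15 and Slfn4 remain at equal depth was not tested.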

How the data were processed

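Droplet 3' single-cell RNA libraries (Chromium v3) of gingival leukocytes were analysed, 1 diabetic and 1 normoglycemic. The deposited values are unnormalized UMI counts for each gene in each barcode; the authors made them with Cell Ranger, version 6.0.2 per the submitters' processing notes and 4.0.0 per the file headers, on mm10. Antibody features in the same matrices were kept out of gene totals.

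Cells were kept and members chosen as described above. Counts were summed over cells of a population and divided by its total to give CPM, without normalization between libraries. A gene was measured at 10 CPM or more in either population, and log2 differences used a pseudocount of 0.5 counts. With 1 library per condition no test was made; a call is a fold past 2 (members against other neutrophils) or 1.5 (between libraries). Named genes had at least 50 CPM on the higher side and an interval wholly beyond that fold (in both libraries for the first comparison, and with at least 50 counts for the second), ranked by the bound nearer to 1, up to 12 per direction; from each list up to 4 abundant genes on the median's side were eligible. Other genes were picked after their values were seen. Some items are not reported here. The members and gene lists were chosen with earlier results of these data known. No doublet caller was run; cells with at least 2 UMIs of other types' markers, or among the deepest 8%, were left out as alternatives. Promoters came from RefSeq (GRCm38.p6), and gene positions from GENCODE M21, which matched 32158 of 32285 gene IDs. Settings with equal cell weights, depth ranges, single rule genes, 10 CPM in other neutrophils alone and thresholds of 15 UMIs or more were added after the data were seen. The code was tested on simulated data. Python 3.11.15, numpy 2.4.6, scipy 1.17.1, pandas 2.3.3, statsmodels 0.14.6, matplotlib 3.10.9, R 4.3.3 and edgeR 4.0.16 (TMM factors only) were used.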

Additional observations from a re-analysis of the deposited data

Results flagged for a closer look

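The share of cells with at least 5 UMIs of Rsad2, Ifit1, Ifit2 and Ifit3 differed between the libraries in opposite directions in neutrophils and in other cells, which is why it is singled out. In neutrophils the diabetic share minus the normoglycemic share was 1.04 percentage points, and in non-neutrophil cells it was -1.04 percentage points. Whether these differences differ from each other was not tested, since each rests on 1 library per condition. The non-neutrophil cells had median depths of 8970 UMIs in the diabetic and 8944 UMIs in the normoglycemic library. The mix of cell types among them was not held equal between libraries.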

How the results depend on the processing

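No paired analysis was possible because each condition had 1 library, and no replicate could be left out. The share ratio of 1.5 (diabetic over normoglycemic) was 0.857, 0.682 and 0.574 at thresholds of 15, 20 and 30 UMIs and 0.995 in neutrophils with 4000 to under 8000 UMIs, so it fell below 1 there. It was 3.47 with 2000 to under 4000 UMIs, 2.59 for Ifit3 alone and 1.08 for Ifit2 alone. In neutrophils called male by their sex-linked genes it was 1.27 (0.870 to 1.84), and in those with no call 1.89 (1.27 to 2.85). Of the members 6 diabetic and 0 normoglycemic cells were called female. Of other neutrophils 38.0% of diabetic and 51.7% of normoglycemic cells were called male, and 4.88% and 1.15% female. The cause was not tested.

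Counts of genes past a fold moved most with filters. Filters also change how many genes are measured, so each count is given with that number. Within the diabetic library 364 of 4515 measured genes were called higher. The higher calls were 740 of 4729 at a threshold of 10 UMIs and 624 of 4690 without C1q UMIs. In the 6 members called female by their sex-linked genes they were 1930 of 6689. Without a CPM filter they were 1952 of 16801, at 50 CPM 109 of 1726, and among genes at 10 CPM in other neutrophils 130 of 4046. The lower calls, 190 of 4515, were 121 of 4459 at 3 UMIs and 372 of 4443 at 10 UMIs per 10000. They were 304 of 3982 without cells holding other types' markers, 887 of 4372 in cells called male and 1842 of 6689 in cells called female. Without a filter they were 7954 of 16801, and at 50 CPM 8 of 1726. Within the normoglycemic library 245 of 4292 measured genes were called higher. The higher calls were 407 of 4455 at 10 UMIs, 442 of 4471 without C1q UMIs and 1491 of 16778 without a filter. At 50 CPM they were 82 of 1666, at 10 CPM in other neutrophils 85 of 3913 and below 8000 UMIs 369 of 3977. The lower calls, 233 of 4292, were 79 of 4265 at 3 UMIs, 8748 of 16778 without a filter and 18 of 1666 at 50 CPM. Between libraries in members the higher calls, 1433 of 4626, were 938 of 4399 in male cells, 4308 of 10821 without a filter and 461 of 1817 at 50 CPM. The lower calls, 891 of 4626, were 1461, 2866 and 293 of the same numbers of genes. In other neutrophils the higher calls, 648 of 4303, were 411 with TMM and 355 with the median of ratios, of the same 4303 genes. They were 1060 of 6819 in female cells, 5490 of 18296 without a filter and 230 of 1673 at 50 CPM. The lower calls, 625 of 4303, were 2772 of 6819 in female cells, 3978 of 18296 without a filter and 266 of 1673 at 50 CPM.

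The type I effector median between libraries in members, 0.04, was 0.28 with S100a8 and S100a9 at 5%, 0.36 without marker-bearing cells and -0.13 with TMM. In other neutrophils its 0.37 was -0.37 in female cells and 0.20 with the median of ratios, and within the diabetic library its 2.36 was 1.06 in female cells, while within the normoglycemic library its 2.48 was 2.14 among genes at 10 CPM in other neutrophils. TMM shifted log2 differences by -0.15 within the diabetic library, by -0.18 between members and by -0.14 between other neutrophils. Signs turned, on few cells, for the GTPases (-2.87 within the diabetic library and -0.64 between other neutrophils), Ifi47 (-3.96), Usp18 (-1.03) and Gbp5 (-3.75) in female cells, for U90926 (-1.32) in male cells, and for Ccl2 without marker-bearing cells (1.84) and below 8000 UMIs (1.81).

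Single libraries, pooled animals and 246 members limit precision, and low genes were found in few members.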

Other observations

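Each matrix also held 4 antibody features named C1 to C4, and the sources used here do not say what they mark. At least 20 UMIs of them together were found in 0 of 143 diabetic and 11 of 103 normoglycemic interferon-high neutrophils (10.7%), and in 63 (1.43%) diabetic and 348 (7.25%) normoglycemic other neutrophils.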
